A study of Mus musculus with 6 samples.

Results

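The genes described here are 29 genes for proteins of the cytosolic ribosome, 20 of the large subunit (Rpl genes) and 9 of the small subunit (Rps genes). They were chosen by symbol: each row of the deposited gene table whose Ensembl identifier carries 1 of the 29 symbols was taken, and rows of pseudogenes were not. All 29 were found, each in 1 row, among 55401 genes in the table, and all 29 were among the 15959 genes with enough counts to be tested. The study compared RNA of mouse bone marrow-derived macrophages (BMDMs, primary macrophages grown from bone marrow) of the C57BL/6 strain in 2 groups of 3 libraries. The siNC group was transfected with a negative-control siRNA and the siPiezo1 group with an siRNA against Piezo1, a mechanically gated cation channel. The cells of both groups were stretched for 4 h, so that every comparison is between stretched cells and there is no unstretched group. The comparison addresses how Piezo1 acts on macrophages under mechanical stimuli. No label says whether the 3 libraries of a group are separate cultures or animals, and a p-value therefore measures the spread among these libraries, which may be technical.

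A eukaryotic ribosome has a small subunit, which binds the mRNA and reads its codons, and a large subunit, which joins amino acids at the peptidyl transferase centre and releases the growing chain through an exit tunnel. Its proteins are made in near-equal numbers and are assembled with ribosomal RNA in the nucleolus, and proteins left without a partner are degraded. Most mRNAs of ribosomal proteins begin with a terminal oligopyrimidine (TOP) tract, a C at the first base followed by a run of C and T (U in the RNA). Through this tract the mTOR pathway and the RNA-binding protein Larp1 control how strongly these mRNAs are translated, which poly(A) RNA levels do not show. In macrophages, as in other cells, ribosome production is known to rise with growth and division.

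The start-site sequences bear on the TOP tract, which the choice of genes did not use and which most of the 29 genes did not have at the annotated first base. A TOP tract was counted where the annotated start was a C followed by at least 4 bases that were each C or T, read on the strand of the gene only, since the tract is a feature of the transcript. The lines here give RefSeq sequence on build GRCm38.p6, 5′ to 3′ on the gene's strand, with 10 bases before the annotated start and 20 from it, and capitals mark the tract. The first 3 genes have a tract at the annotated RefSeq start, and Rpl23, Rpl5 and Rpl11 are shown because none was found at theirs.
Rps6, chr4:86857348-86857377, minus strand: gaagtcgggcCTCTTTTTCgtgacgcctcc
Rpl35, chr2:39005112-39005141, minus strand: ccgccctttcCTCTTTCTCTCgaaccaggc
Rpl38, chr11:114668570-114668599, plus strand: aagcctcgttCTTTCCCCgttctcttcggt
Rpl23, chr11:97782420-97782449, minus strand: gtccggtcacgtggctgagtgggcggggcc
Rpl5, chr5:107900518-107900547, plus strand: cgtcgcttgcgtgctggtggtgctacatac
Rpl11, chr4:136053374-136053403, minus strand: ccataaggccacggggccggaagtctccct

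A RefSeq sequence was found for 23 of the 29 genes, and 5 of the 23 (21.7%) had the tract exactly at the annotated start. The share was 27.8% (10 of 36) among the other cytosolic ribosomal protein genes with a sequence and 3.01% (813 of 27025) among all genes of that table. The annotated first base matters for this count, since a start placed a few bases away hides a tract. Within 10 bases of the start on either side the tract was found in 47.8% of the 23 genes, 69.4% of the other ribosomal protein genes and 34.4% of all genes, so that the wider window separates the groups less. An unbroken run of at least 10 bases of C or T within 50 bases of the start was found in 65.2% of the 23 genes, 80.6% of the other ribosomal protein genes and 20.6% of all genes.

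In the GENCODE M21 annotation (build GRCm38) the principal coding transcript began with the tract for 3 of the 29 genes (10.3%), 7 of 51 other ribosomal protein genes (13.7%) and 2.24% of 21847 genes with a coding transcript. Counting a gene when any of its coding transcripts began with the tract gave 8 of the 29 genes (27.6%), 16 of 51 (31.4%) and 1121 of 21847 (5.13%). The annotations marked different genes. Those with a tract at the RefSeq start (Rps6, Rpl35, Rpl38, Rpl14 and Rpl15) had none at a GENCODE start. Of those with a GENCODE tract, Rpl4, Rpl10, Rps2, Rps3, Rps9 and Rps13 had none at the RefSeq start, and Rpl30 and Rpl32 had no RefSeq sequence. The first 24 bases of a coding transcript are given here for some of the genes whose values are given in detail, with the tract in capitals. For Rpl32 and Rps2 it is the principal transcript, and for Rps9 and Rps13 another one. Rpl4 (principal transcript) and Rpl10 (another one) also had a tract and are not shown. Rpl3, the gene with the clearest lower values in the comparison, is shown beside them and has no tract at this start.
Rpl32, chr6:115808724-115808747, minus strand: CTTCCTTCTTCCTCggcgctgcct
Rps2, chr17:24720110-24720133, plus strand: CTTCTTCTTCTTCgggagaacacg
Rps9, chr7:3704038-3704061, plus strand: CTCTTTgtctcgggcctgagttcg
Rps13, chr7:116334110-116334133, minus strand: CTCTTTgctgccagacctccgcca
Rpl3, chr15:80083383-80083406, minus strand: agggggcggagccatcacttggct

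Each library held 61086684 to 75052745 estimated counts, and levels are given as CPM, counts brought to the same library size with TMM factors. Piezo1, the target of the siRNA, was at 180, 285 and 189 CPM in siNC 1 to 3 and at 111, 109 and 113 CPM in siPiezo1 1 to 3, which is 51.0% of the siNC mean. The 8 macrophage markers summed to 27969 to 35158 CPM in siNC and 34408 to 37251 CPM in siPiezo1, most of it from Lyz2 (20623 to 26819 CPM), and 4 of the 8 had a log2 fold change above 0 and 4 below. In contrast, 4 of 6 T cell markers were at 0 in every library and 5 were under 1 CPM in all of them. The 6 summed to 16.5, 2.63 and 13.4 CPM in siNC 1 to 3 and to 5.07, 5.72 and 2.12 CPM in siPiezo1 1 to 3. DESeq2 without siNC 2 called 1 of them lower. The library siNC 2 stood apart from the other 5. All 10 neutrophil markers were highest in siNC 2, where they summed to 3236 CPM against 598 to 677 CPM elsewhere, and none of the 10 was at 0 in all libraries. All 8 markers of cycling cells were also highest in siNC 2, with a sum of 1118 CPM against 572 to 870 CPM, while 6 of 8 macrophage markers were lowest there. Results are therefore given with all 6 libraries and without siNC 2. The part of these other cell types or of cycling cells in the ribosomal protein values was not tested. In RNA from a whole culture, fewer cells of a type and less RNA per cell cannot be told apart.

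The ribosomal protein genes were low in siNC 2 nearly as a block. Of the 29 genes, 25 had their lowest level in siNC 2 (17 of 20 of the large and 8 of 9 of the small subunit), against 27.6% of all tested genes. In 28 of 29, siNC 2 was below the mean of siNC 1 and 3. The median log2 difference was -0.36, beside 0.00 over all tested genes. The exception was Rps2, a protein at the mRNA entry channel, which had its highest level in siNC 2 at 127% of the mean of siNC 1 and 3. At the other end was Rps14, a small subunit platform protein, at 63.7% of that mean. The 29 genes together took 1.11%, 0.934% and 1.15% of the counts of siNC 1, 2 and 3 and 1.10%, 1.06% and 1.03% of those of siPiezo1 1, 2 and 3. In siNC 1, siNC 2 and siNC 3, 25, 1 and 28 genes were above their own mean over the 6 libraries. In siPiezo1 1, 2 and 3 it was 24, 15 and 9.

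**Figure D1:**
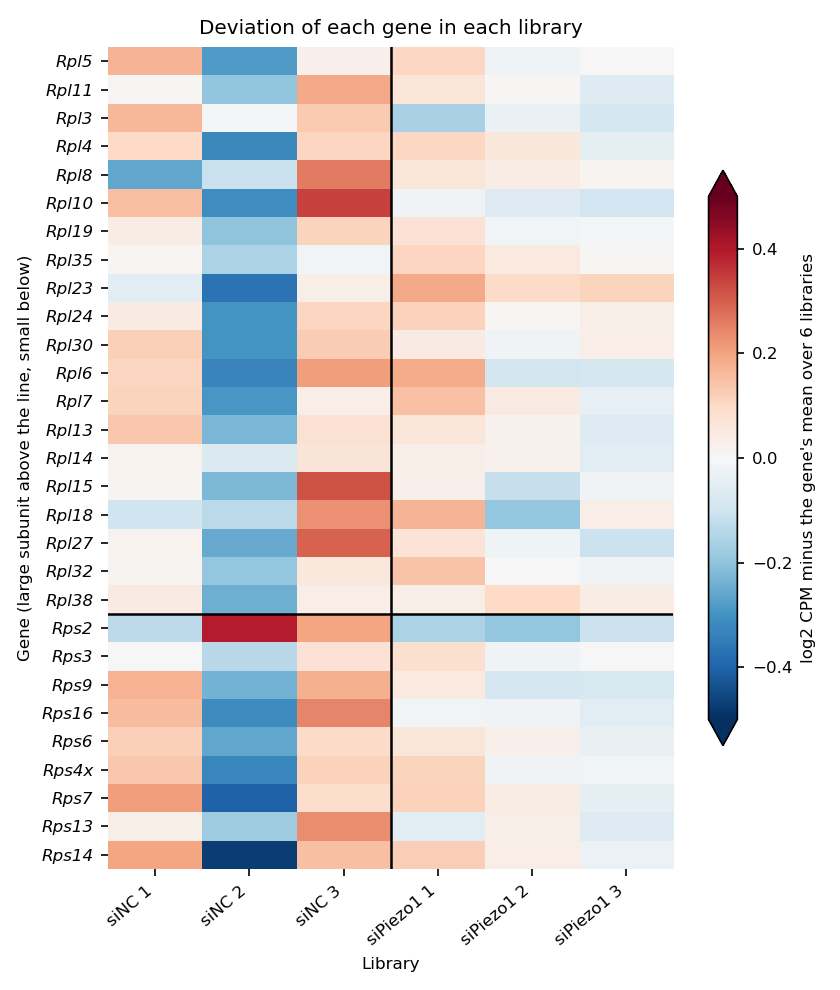
Each row is 1 of the 29 genes and each column 1 library; colour shows the log2 CPM minus the mean of that gene over the 6 libraries, red above and blue below. The siNC 2 column is below 0 in every row but that of Rps2, though barely so for Rpl3.

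Between the groups, no ribosomal protein gene passed the test with all 6 libraries. edgeR's quasi-likelihood test called 0 of 29 at an adjusted p under 0.05, where it called 0.00627% of all tested genes (1 of 15959). The members' adjusted p-values were 0.978 to 0.999. At an unadjusted p under 0.05 it gave 0 of 29, against 4.93% of all genes, and DESeq2 called 0 of 29, against 0.555% of all genes. The log2 fold changes of siPiezo1 against siNC ran from -0.32 (Rps2) to 0.25 (Rpl23), with 18 above 0 and 11 below and a median of 0.02, beside a median of -0.01 over all tested genes. Their standard errors were small, with a median of 0.13 against 0.22 over all tested genes. The median was 0.03 for the large and 0.02 for the small subunit. In single genes the siNC and siPiezo1 values overlapped for 27 of 29. Rpl3 alone was lower in every siPiezo1 library (5.65% of all genes were lower without overlap) and Rpl23 alone was higher (6.24% of all genes).

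Without siNC 2 the balance of signs turned, in a fit where markers of cycling cells and some macrophage markers also differed, as given after the counts. Of the 29 genes, 24 had a log2 fold change below 0 (15 of 20 large, 9 of 9 small), and the median was -0.10 (-0.06 for the large and -0.13 for the small subunit), beside a median of 0.01 over all genes. edgeR again called 0 of 29 at an adjusted p under 0.05, against 1.12% of all genes, and the lowest member adjusted p was 0.0838. At an unadjusted p under 0.05 it gave 5 of 29, 1 higher and 4 lower, against 14.4% of all 15959 genes in both directions (1228 higher and 1063 lower). With these 5 libraries 10 genes were lower without overlap (4 large, 6 small) against 16.4% of all genes, and 1 was higher against 16.9%. DESeq2 without siNC 2 called 4 genes lower and 0 higher. Of all 13171 genes with an adjusted p it called 8.15% in both directions (468 lower and 605 higher). The 4 were Rpl3 (adjusted p = 0.00661), Rpl10 (adjusted p = 0.00479), Rps9 (adjusted p = 0.0312) and Rps16 (adjusted p = 0.00296). Among the markers in these 5 libraries, 8 of 8 genes of cycling cells had a log2 fold change above 0 (median 0.50), 6 of them higher without overlap, and their siPiezo1 sum was 132% of that in siNC 1 and 3. edgeR called 0 of these 8 and DESeq2 called 4 higher (Ccna2, Ccnb1, Mki67 and Top2a). Of the 8 macrophage markers, edgeR called Adgre1 (-0.31 ± 0.05, adjusted p = 0.0385) and Fcgr1 (-0.46 ± 0.07, adjusted p = 0.0280) lower, and DESeq2 also Mertk (-0.59 ± 0.13 by edgeR). The macrophage list was mixed, with 5 log2 fold changes below 0 and 3 above. In it 4 genes were lower and 2 (Cd14 and Lyz2) higher without overlap, and the siPiezo1 sum was 102% of that in siNC 1 and 3. The part of these markers in the ribosomal protein values was not tested.

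**Figure D2:**
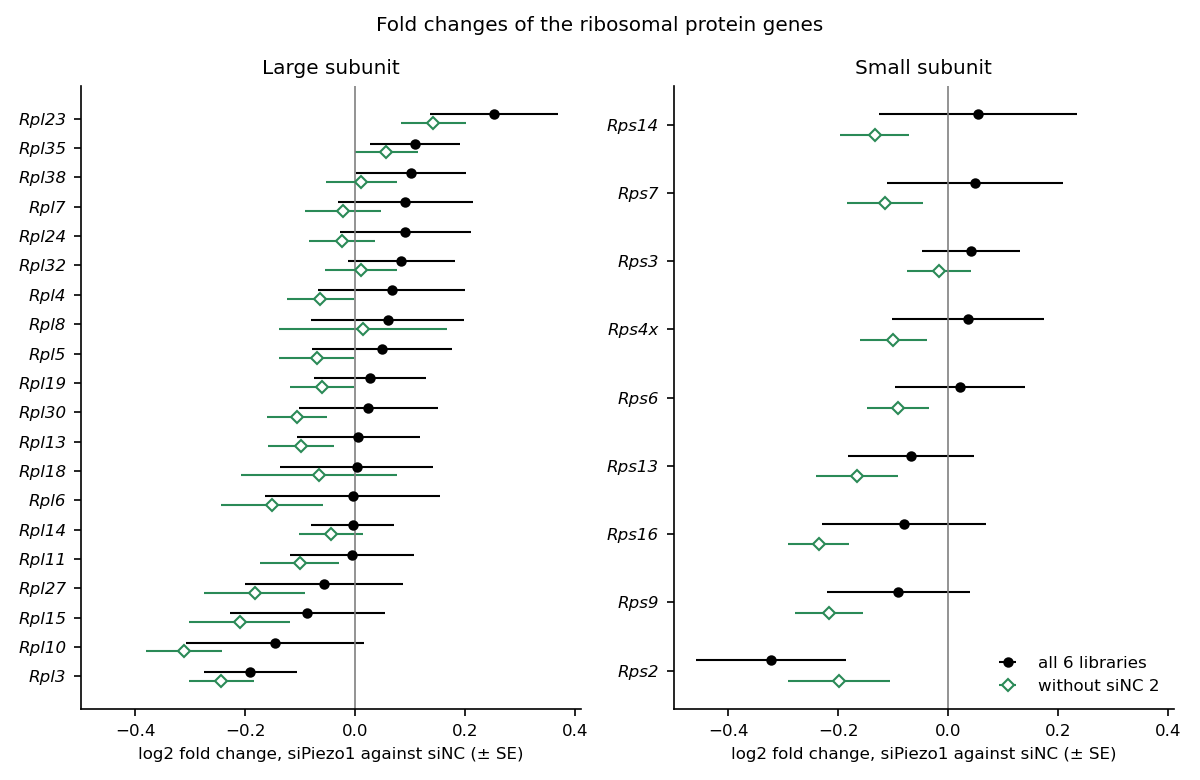
Points give the log2 fold change of siPiezo1 against siNC for each gene with its standard error, filled for all 6 libraries and open without siNC 2. With siNC 2 left out, 24 of the 29 values are below 0, against 11 with all libraries.

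The large subunit genes were taken by where their proteins sit, starting with the 5S particle. Rpl5 and Rpl11 bind 5S rRNA in the central protuberance, and when they are free of ribosomes they bind Mdm2, the ligase that degrades p53. Rpl5 was at 612, 447 and 554 CPM in siNC 1 to 3 and at 586, 537 and 546 CPM in siPiezo1 1 to 3. siNC 2 was the lowest of the 6 libraries and siNC 1 the highest, so that the siPiezo1 values lay inside the siNC range, and the log2 fold change was 0.05 ± 0.13 (SE). Rpl11 was at 303, 263 and 344 CPM in the siNC libraries against 315, 303 and 288 CPM in siPiezo1. Its siPiezo1 values also lay inside the siNC range, and its log2 fold change was -0.01 ± 0.11 (SE). Without siNC 2 the values were -0.07 ± 0.07 for Rpl5 and -0.10 ± 0.07 for Rpl11.

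Proteins near the peptidyl transferase centre and the tRNA sites included the gene with the clearest lower values. Rpl3, a core protein beside the catalytic centre, was at 444, 393 and 434 CPM in the siNC libraries (424 ± 26.9, SD, n = 3) against 354, 387 and 373 CPM in the siPiezo1 libraries (371 ± 16.6, SD, n = 3). Every siPiezo1 library was below every siNC library, although the highest siPiezo1 value (387) came close to siNC 2 (393). The mean in siPiezo1 was 87.6% of that in siNC, with a log2 fold change of -0.19 ± 0.09 (SE). edgeR gave an unadjusted p of 0.0616 and an adjusted p of 0.978. An exact two-sided permutation test of the CPM gave p = 0.1, the smallest that 3 against 3 libraries allow. Without siNC 2 the log2 fold change of Rpl3 was -0.24 ± 0.06, with an edgeR adjusted p of 0.0994. Rpl3 thus passed under DESeq2 without siNC 2 but under neither edgeR fit.

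Rpl10, which joins the large subunit late in its assembly and lies near the tRNA sites, was described because DESeq2 called it without siNC 2, and so was chosen after its values were seen. It was at 288, 209 and 328 CPM in the siNC libraries against 256, 248 and 242 CPM in siPiezo1. The siPiezo1 values fell between siNC 2 and the other siNC libraries, with a log2 fold change of -0.15 ± 0.16 with all libraries and -0.31 ± 0.07 without siNC 2 (edgeR adjusted p = 0.0838). The other proteins of this region had values of both signs. Rpl4, which reaches into the exit tunnel, was at 1051, 786 and 1057 CPM in the siNC libraries against 1056, 1022 and 952 CPM in siPiezo1, with only siNC 2 standing apart. Rpl8 ran from 318 to 455 CPM in siNC and from 384 to 397 CPM in siPiezo1, and was 1 of 3 large subunit genes whose lowest library was not siNC 2, the others being Rpl3 and Rpl18.

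Around the tunnel exit, where chaperones and the targeting machinery meet the new chain, Rpl35 was at 312, 278 and 307 CPM in the siNC libraries against 334, 321 and 312 CPM in siPiezo1. The groups met at 312 CPM, the siPiezo1 values being otherwise the higher, and the log2 fold change was 0.11 ± 0.08 (SE, unadjusted p = 0.224 by edgeR, exact permutation p = 0.2). Rpl19, of the same region, had a log2 fold change of 0.03 ± 0.10. With siNC 2 left out the values were 0.06 ± 0.06 for Rpl35 and -0.06 ± 0.06 for Rpl19.

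At the face that meets the small subunit, Rpl23 had the highest log2 fold change of the 29 genes, which did not pass the test. This protein is the docking site of the factor Eif6, which keeps the subunits apart until the large one is mature. Rpl23 was at 304, 245 and 323 CPM in the siNC libraries (290 ± 40.7, SD, n = 3) against 360, 337 and 341 CPM in the siPiezo1 libraries (346 ± 11.9, SD, n = 3). All siPiezo1 libraries were above all siNC libraries, and siNC 2 was the lowest. The mean in siPiezo1 was 119% of that in siNC, with a log2 fold change of 0.25 ± 0.12 (SE). edgeR gave an unadjusted p of 0.0671 and an adjusted p of 0.978, with an exact permutation p of 0.1. Without siNC 2 the log2 fold change was 0.14 ± 0.06 (unadjusted p = 0.0436, edgeR adjusted p = 0.327), and Rpl23 was the 1 gene higher at an unadjusted p under 0.05. Rpl24 and Rpl30, which bridge to the small subunit, had log2 fold changes of 0.09 ± 0.12 and 0.02 ± 0.13 with all libraries and of -0.02 ± 0.06 and -0.11 ± 0.05 without siNC 2.

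The Rpl23 row shares its coding sequence with the row of Gm9794, a near-identical copy whose counts were 76.1% of those of Rpl23. The authors' counting could have split fragments between them. Gm9794 was at 247, 197 and 250 CPM in siNC and 262, 251 and 248 CPM in siPiezo1, with a log2 fold change of 0.13 ± 0.11. Summed, the rows gave 551, 442 and 572 CPM in siNC and 622, 589 and 590 CPM in siPiezo1, so that the groups still did not overlap, with a log2 fold change of 0.20 ± 0.12.

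The remaining 9 large subunit genes lie in the outer layers of the particle. Rpl38, a small surface protein known for the translation of Hox mRNAs in the mouse embryo, was at 81.5, 66.6 and 80.8 CPM in the siNC libraries against 80.4, 84.4 and 80.8 CPM in siPiezo1. Only siNC 2 was away from the other libraries, and the log2 fold change was 0.10 ± 0.10. Rpl32 was at 379, 329 and 390 CPM in the siNC libraries against 415, 377 and 372 CPM in siPiezo1, with overlapping groups and a log2 fold change of 0.08 ± 0.10. Rpl18 was at 184, 180 and 232 CPM in the siNC libraries against 223, 173 and 202 CPM in siPiezo1, with libraries of both groups at either end and a log2 fold change of 0.00 ± 0.14. The other 6 genes (Rpl6, Rpl7, Rpl13, Rpl14, Rpl15 and Rpl27) had log2 fold changes from -0.09 (Rpl15) to 0.09 (Rpl7), and each was lowest in siNC 2. Rpl14 had the smallest standard error of the 29 genes (0.075) and ran from 171 to 188 CPM.

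Of the small subunit, 4 proteins lie along the mRNA path, and Rps2 among them had the lowest log2 fold change of the 29 genes, which did not pass the test. Rps2 was at 347, 498 and 436 CPM in the siNC libraries (427 ± 75.8, SD, n = 3) against 340, 332 and 353 CPM in the siPiezo1 libraries (342 ± 10.1, SD, n = 3). siNC 2 and siNC 3 were above all other libraries, whereas siNC 1 lay within the siPiezo1 range. The log2 fold change was -0.32 ± 0.14 (SE), with the smallest unadjusted p of the 29 genes (0.0515 by edgeR), an adjusted p of 0.978 and an exact permutation p of 0.2. Without siNC 2, the library in which it was highest, the log2 fold change was -0.20 ± 0.09 (edgeR adjusted p = 0.392).

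Rps9, at the mRNA entry site, was at 513, 386 and 515 CPM in the siNC libraries against 470, 429 and 430 CPM in siPiezo1. siNC 1 and 3 were above and siNC 2 below all siPiezo1 libraries, so that the log2 fold change was -0.09 ± 0.13 with all libraries (exact permutation p = 0.4) and -0.22 ± 0.06 without siNC 2 (edgeR adjusted p = 0.145). Rps16, whose tail reaches the tRNA in the decoding region, was chosen after its values were seen, like Rpl10. It was at 381, 274 and 404 CPM in the siNC libraries against 338, 337 and 327 CPM in siPiezo1, in the same arrangement as Rps9. Its log2 fold change was -0.08 ± 0.15 with all libraries and -0.24 ± 0.06 without siNC 2 (edgeR adjusted p = 0.0953). Rps3, the fourth protein of the mRNA path, ran from 624 to 728 CPM over the libraries, with a log2 fold change of 0.04 ± 0.09.

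Rps6, the substrate of the S6 kinases through which mTOR signalling marks the small subunit, was at 510, 393 and 502 CPM in the siNC libraries against 490, 478 and 458 CPM in siPiezo1. The siPiezo1 values lay between siNC 2 and the other siNC libraries, and the log2 fold change was 0.02 ± 0.12, or -0.09 ± 0.06 without siNC 2. These are RNA levels, and the phosphorylation of the protein was not measured. Among the body and platform proteins, Rps14 was at 422, 264 and 408 CPM in the siNC libraries against 400, 376 and 360 CPM in siPiezo1. It had the largest positive log2 fold change of the small subunit (0.05 ± 0.18), and the sign was the opposite without siNC 2 (-0.13 ± 0.06). Rps4x, encoded on the X chromosome, was at 667, 485 and 658 CPM in the siNC libraries against 656, 600 and 602 CPM in siPiezo1, with a log2 fold change of 0.04 ± 0.14. Rps13 was at 142, 123 and 164 CPM in the siNC libraries against 135, 142 and 133 CPM in siPiezo1, with a log2 fold change of -0.07 ± 0.11 (exact permutation p = 0.7). Rps7, which also binds Mdm2, had a log2 fold change of 0.05 ± 0.16, and in all 4 genes siNC 2 was the lowest library.

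**Figure D3:**
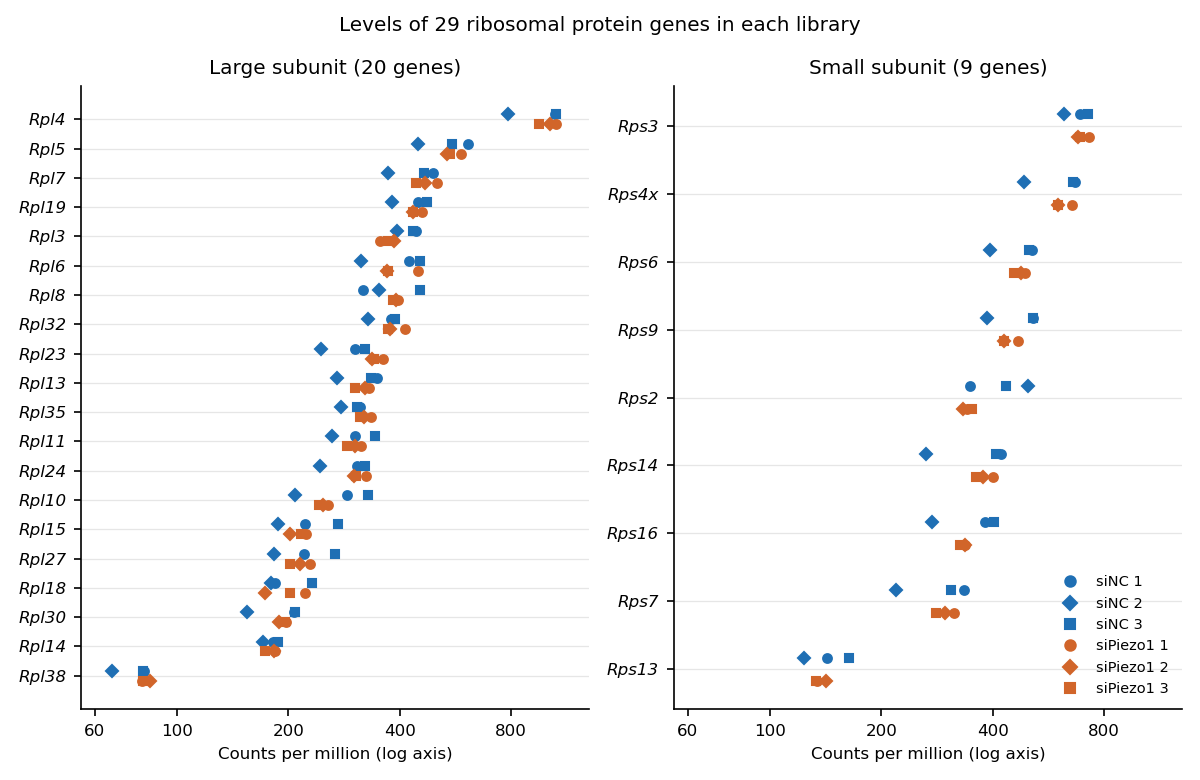
Each symbol is the level of 1 gene in 1 library on a log axis of CPM, with siNC in blue and siPiezo1 in orange and the shape giving the replicate number. The siNC 2 diamonds sit left of the other symbols for most genes, and Rpl3 is the gene whose orange symbols all lie left of its blue ones.

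Summed over a subunit, the genes showed the same single low library. The 20 large subunit genes summed to 7129, 5826 and 7492 CPM in siNC and to 7276, 6866 and 6739 CPM in siPiezo1, and the 9 small subunit genes to 4006, 3267 and 4117 CPM and to 3869, 3672 and 3632 CPM. All 29 together gave 10613 ± 1337 CPM (SD, n = 3) over the siNC libraries. Over the siPiezo1 libraries they gave 10685 ± 407 CPM (SD, n = 3), or 100.7% of the former. Against siNC 1 and 3 alone the siPiezo1 mean was 94.0% (95.2% for the large and 91.7% for the small subunit).

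The ratio of the large to the small subunit sum was 1.78, 1.78 and 1.82 in siNC and 1.88, 1.87 and 1.86 in siPiezo1, without overlap. With all 6 libraries that separation rested on Rps2. With Rps2 left out of the small subunit sum the ratios were 1.95, 2.10 and 2.04 in siNC and 2.06, 2.06 and 2.06 in siPiezo1, and overlapped. The overlap came from siNC 2 alone, and siNC 1 and 3 stayed below all siPiezo1 libraries. Over all 80 cytosolic ribosomal proteins in the lists used here the ratio was 1.17, 1.26 and 1.18 in siNC and 1.22, 1.19 and 1.21 in siPiezo1, also overlapping. Here too only siNC 2 was not below the siPiezo1 libraries, with siNC 3 (1.181) just under siPiezo1 2 (1.185).

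**Figure D4:**
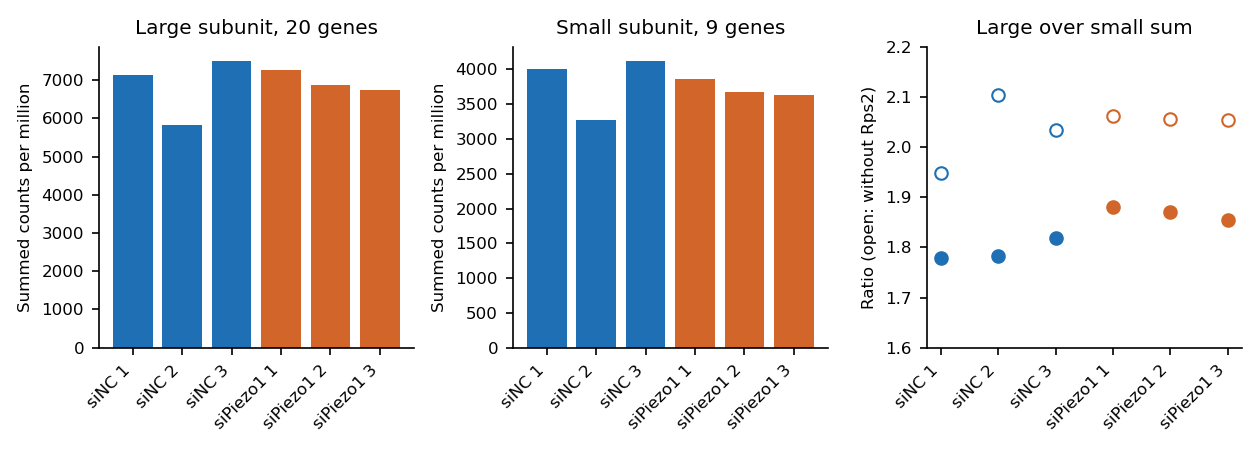
Bars give the summed CPM of the large and the small subunit genes in each library, and circles the ratio of the sums, filled with and open without Rps2. siNC 2 has the lowest bar in both subunits, and the filled circles of siPiezo1 (1.86 to 1.88) lie above those of siNC (1.78 to 1.82). The open circles overlap through siNC 2 alone.

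Levels can be compared between genes only per length. Per kilobase of the principal coding transcript, the mean level over the 6 libraries ran from 66.5 CPM (Rpl18) to 729 CPM (Rpl32), a ratio of 10.9. Below Rpl32 (635 to 802 CPM per kb over libraries) came Rpl4 at 642 and Rps4x at 627 CPM per kb, whose ranges of 511 to 687 and 497 to 684 overlapped each other and that of Rpl32. The lowest were Rpl38 (173), Rpl15 (115) and Rpl18 (66.5), and the Rpl18 range of 57.8 to 77.5 did not meet that of Rpl15 (97.6 to 142). Rps4x was the highest and Rps13 (238 CPM per kb) the lowest of the small subunit. This order depends on the length used, and the Rpl18 transcript has 2989 bases around a coding length of 564 bases. Per kilobase of coding length the ratio of highest to lowest was 3.41, from Rpl14 (277 CPM per kb) to Rps3 (944 CPM per kb). On that scale the median was 548 CPM per kb for the large and 775 CPM per kb for the small subunit genes.

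Ribosomal protein genes have many processed copies in the genome, and the table counts those rows apart. Of the 29 genes, 27 had at least 1 copy in the table at 95% identity or more over at least 80% of the coding sequence, 169 copies in all. The counts of the copies were a median of 9.19% of the counts of the gene, and above 20% for 9 genes, up to 52.4% for Rpl10 and 76.1% for Rpl23. Adding them changed the log2 fold change by a median of 0.01, and the sign turned for 5 genes. The largest shift was in Rpl15, from -0.09 to 0.13, where the copy Gm49594 was at 8.17, 46.0 and 36.1 CPM in the siNC libraries against 51.2, 60.2 and 52.7 CPM in siPiezo1. Rpl15 was chosen here after its values were seen.

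Some exons are also shared with neighbours. Fam69a, on the opposite strand, overlaps 24.3% of the Rpl5 exons and was at 21.3 to 29.2 CPM. Wdr38, on the opposite strand, overlaps 66.2% of those of Rpl35 but was at most 0.658 CPM, and Gm28037, on the same strand, overlaps 47.0% of those of Rpl24 but was at most 0.185 CPM.

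The other cytosolic ribosomal proteins had more log2 fold changes below 0 than above with all libraries, the other way round from the 29 genes, a difference that was not tested. Of the 27 other large subunit proteins edgeR called 0, with 8 above 0 and 19 below and a median log2 fold change of -0.04, and of the 24 other small subunit proteins it called 0, with 10 above and 14 below and a median of -0.03. Without siNC 2 the medians were -0.11 and -0.14, and edgeR again called 0, while DESeq2 called 3 large subunit genes (Rpl10a, Rpl27a and Rpl7a) and 1 small subunit gene (Rps26) lower. Among them siNC 2 was the lowest library for 18 of 27 and 19 of 24. Rpl7a had the smallest unadjusted p of these lists. It was at 173, 190 and 163 CPM in the siNC libraries against 141, 119 and 94.4 CPM in siPiezo1, without overlap, with a log2 fold change of -0.57 ± 0.15 (unadjusted p = 0.00772, adjusted p = 0.885). Rps26, at the mRNA exit, was at 175, 161 and 178 CPM in the siNC libraries against 143, 156 and 151 CPM in siPiezo1, also without overlap, with a log2 fold change of -0.19 ± 0.08 (adjusted p = 0.978). Next by p were Rpl39 (0.12 ± 0.08), Rpl12 (-0.09 ± 0.07), Rps25 (0.33 ± 0.19) and Rps27a (-0.24 ± 0.17), given as log2 fold changes. Of the other large subunit proteins, 2 were lower without overlap (Rpl7a and Rpl12) and 1 was higher (Rpl39). Of the other small subunit proteins, 1 was lower (Rps26) and 0 were higher. Over all tested genes 5.65% were lower and 6.24% higher without overlap.

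The 16 translation factors are known for mRNAs that mostly carry TOP tracts too. Their tracts were not counted here, and a link between the tract and the values in siNC 2 was not tested. They had 8 log2 fold changes above 0 and 8 below, a median of 0.00 and 0 calls by edgeR. For 12 of 16 the lowest library was siNC 2. Leaving it out gave a median of -0.12, with 15 of 16 below 0, 0 calls by edgeR and 1 by DESeq2, Eef1a1, which was lower. Eef1g, a subunit of the elongation factor that reloads Eef1a1, was at 355, 386 and 360 CPM in the siNC libraries against 325, 322 and 327 CPM in siPiezo1, without overlap. Its log2 fold change was -0.18 ± 0.07 (unadjusted p = 0.0489, adjusted p = 0.978), and next by p were Eef1d (-0.25 ± 0.15) and Eif3l (-0.07 ± 0.08).

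The 41 ribosome biogenesis factors, which process ribosomal RNA and assemble the subunits, were the opposite of the ribosomal proteins in siNC 2. In 33 of 41 siNC 2 was the highest library, against 1 of the 29 genes above, Rps2, and 4601 of all 15959 tested genes. With all libraries 33 of 41 had a log2 fold change below 0 and the median was -0.16, and without siNC 2 it was 25 of 41 with a median of -0.04, with 0 calls in both edgeR fits. DESeq2 without siNC 2 called 1 of them, Gnl3, higher. Heatr1, a factor of early processing, was at 73.2, 87.8 and 74.9 CPM in the siNC libraries against 65.7, 66.0 and 63.6 CPM in siPiezo1, without overlap. Its log2 fold change was -0.27 ± 0.09 with all libraries (unadjusted p = 0.0239, adjusted p = 0.978) and -0.19 ± 0.07 without siNC 2. Rrp9 (-0.48 ± 0.20) and Nolc1 (-0.35 ± 0.15) came next by p. Of the 41 factors, 5 were lower without overlap, Heatr1 and Rrp9 among them, and 2 were higher.

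The 7 ribosomal protein chaperones, most of which escort single ribosomal proteins to the nucleolus, had log2 fold changes below 0 in 7 of 7 with all libraries and in 6 of 7 without siNC 2, with medians of -0.22 and -0.17 and 0 calls by edgeR or DESeq2. Grwd1, the chaperone of Rpl3, was at 12.7, 12.8 and 10.4 CPM in the siNC libraries against 8.05, 6.36 and 9.61 CPM in siPiezo1. These groups did not overlap (5.65% of all genes were lower without overlap), and the log2 fold change was -0.58 ± 0.20 with all libraries (edgeR unadjusted p = 0.0232, adjusted p = 0.978) and -0.53 ± 0.21 without siNC 2. Pdcd2, the chaperone of Rps2, was at 10.1, 9.10 and 11.1 CPM in the siNC libraries against 8.30, 7.59 and 8.47 CPM in siPiezo1. Its groups did not overlap either, though those of Rps2 did, and the log2 fold change was -0.31 ± 0.15 (edgeR unadjusted p = 0.0794). Heatr3, which serves Rpl5 and Rpl11, had a log2 fold change of -0.22 ± 0.12.

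Of 24 regulators of TOP mRNAs and the mTOR pathway, 23 were tested and edgeR called 0, with 10 log2 fold changes above 0 and 13 below and a median of -0.01. Myc, a transcription factor that drives ribosome production, was at 2.58, 15.2 and 2.86 CPM in the siNC libraries against 2.05, 3.97 and 2.29 CPM in siPiezo1. Its log2 fold change was -1.31 ± 0.73 with siNC 2 and 0.03 ± 0.35 without it. Its partner Max (0.25 ± 0.16) and Larp4b (0.18 ± 0.16) were the other genes with the smallest p in this list.

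**Figure D5:**
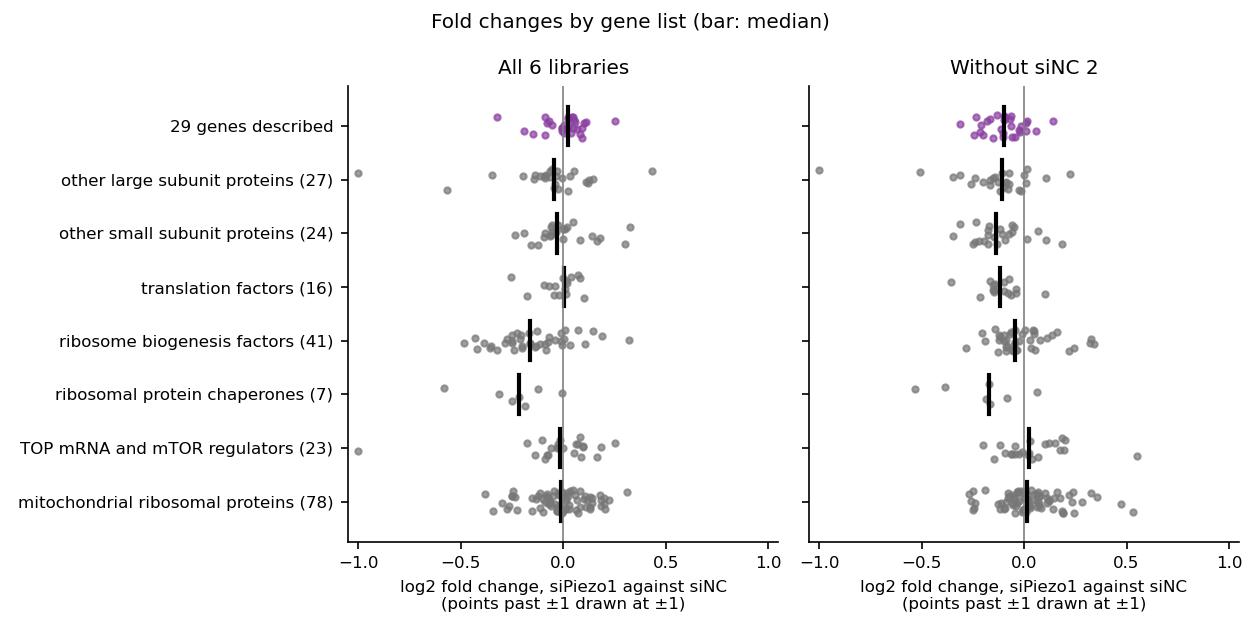
Each point is the log2 fold change of 1 gene of a list and each bar the list's median, with all 6 libraries on the left and without siNC 2 on the right; values beyond 1 in size are drawn at the edge. The median of the 29 genes is 0.02 on the left and -0.10 on the right, while that of the biogenesis factors is -0.16 on the left and -0.04 on the right.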

How the data were processed

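Poly(A) RNA of 6 libraries was measured, 3 siNC and 3 siPiezo1, grouped by sample title. Per the submitters' processing notes, cutadapt 1.9, HISAT2 2.0.4, StringTie 1.3.4d, DESeq2 and edgeR were used with build GRCm39; the role of each, and any use of strand in counting, is not given in the sources used here. Values as deposited are estimated counts per Ensembl gene, not scaled between samples. The design had assumed plain counts; these values were already whole and the same test was used. In each library 697 to 890 rows held exactly 4 counts, against 191 to 262 with 3 and 130 to 167 with 5, so a count may not be 1 fragment, and the depth in fragments is unknown.

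Symbols came from GENCODE M21, which named 55141 of 55401 identifiers; the share of counts in unnamed rows was at most 0.00886% and these entered no named list. In R 4.3.3, edgeR 4.0.16 was run with filterByExpr by group, TMM factors and the robust quasi-likelihood test with group as the only term, with Benjamini-Hochberg adjustment over 15959 genes and a threshold of 0.05. A standard error (SE) is the size of the log2 fold change over the square root of F. Leave-one-out fits kept the same genes. Alternatives were DESeq2 1.42.0, limma-voom (limma 3.58.1), other scalings, no filter, a replicate block, counts divided by 4, pseudogene rows or near-identical copies added, and each library left out; adding near-identical copies, DESeq2 without siNC 2, levels per coding length, GENCODE starts and the pyrimidine runs were chosen after seeing the data.

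The members and lists were chosen with earlier results of these data known. Values in every library are given for the 3 members of each subunit with the smallest p, those with the highest and lowest level per kb, those with the highest and lowest fold change, and Rps6, Rpl5, Rpl11 and Rpl38; of other lists, up to 3 genes with the smallest p are named. Sequences are from the RefSeq promoter table (GRCm38.p6) and GENCODE M21 transcripts, another build than that of the counts. Protein sequences were not used here.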

Additional observations from a re-analysis of the deposited data

How the results depend on the processing

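In no edgeR or limma-voom alternative was any of the 29 genes called, nor by DESeq2 with all libraries; DESeq2 without siNC 2 called 4 lower. The number of genes with a log2 fold change below 0, 11 with all libraries, was 24 by DESeq2 without siNC 2, and ran from 3 (without siNC 3) to 24 (without siNC 2) when 1 library was left out; the cause was not tested. The median of -0.10 without siNC 2 had the sign opposite to the 0.02 with all libraries. The change was within the spread between replicates, but siNC 2 made most of that spread, so it cannot judge this change. The median deviation of the 29 genes from their own means was 0.05, -0.24 and 0.11 in siNC 1 to 3. Some log2 fold changes changed sign, none of them called under the setting in which the sign differed, and the cause was not tested; Rpl10 and Rps16 are among them, both called lower by DESeq2 without siNC 2. By DESeq2 without siNC 2 they were -0.070 (Rpl5), -0.063 (Rpl4), -0.061 (Rpl19), -0.024 (Rpl24), -0.10 (Rpl30), -0.021 (Rpl7), -0.098 (Rpl13), -0.065 (Rpl18), -0.016 (Rps3), -0.091 (Rps6), -0.10 (Rps4x), -0.11 (Rps7), -0.13 (Rps14). Other settings gave with limma-voom 0.0022 (Rpl11), 0.0079 (Rpl6); with the replicate block 0.0022 (Rpl11), 0.0083 (Rpl6); with near-identical copies added 0.0040 (Rpl11), -0.012 (Rpl30), -0.024 (Rpl13), 0.13 (Rpl15), -0.0020 (Rpl18); with library totals -0.0011 (Rpl13), -0.0058 (Rpl18); with DESeq2's size factors -0.00024 (Rpl18); with DESeq2 -0.00024 (Rpl18); with counts divided by 4 -0.0011 (Rpl18); with named pseudogenes added -5.4e-05 (Rpl18). With 1 library left out the lowest and highest values were -0.070 and 0.15 (Rpl5), -0.10 and 0.094 (Rpl11), -0.063 and 0.14 (Rpl4), -0.047 and 0.22 (Rpl8), -0.31 and 0.0013 (Rpl10), -0.061 and 0.093 (Rpl19), -0.024 and 0.17 (Rpl24), -0.11 and 0.095 (Rpl30), -0.15 and 0.10 (Rpl6), -0.021 and 0.17 (Rpl7), -0.098 and 0.077 (Rpl13), -0.043 and 0.027 (Rpl14), -0.21 and 0.066 (Rpl15), -0.088 and 0.13 (Rpl18), -0.18 and 0.092 (Rpl27), -0.016 and 0.090 (Rps3), -0.24 and 0.029 (Rps16), -0.091 and 0.088 (Rps6), -0.10 and 0.12 (Rps4x), -0.11 and 0.17 (Rps7), -0.17 and 0.041 (Rps13), -0.13 and 0.17 (Rps14). No pairing by replicate number was seen. The deviations of libraries with the same number correlated at 0.037, -0.079 and -0.16, and no library correlated best with its own number. These are deviations from the mean of each group of 3, so they cannot exclude a pairing. With the replicate block the median was 0.033 and 0 genes were called. The 29 genes were at 66.6 CPM or more in every library. Their counting error is not known, since a count may not be 1 fragment.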

Other observations

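The 78 mitochondrial ribosomal proteins, which serve a separate ribosome and whose mRNAs are not of the TOP class, did not share the low values in siNC 2. Their start sites were not examined for the tract here, and a link between the tract and the values in siNC 2 was not tested. In 33 of 78 siNC 2 was the highest library and in 13 the lowest, and their sum was 1925 CPM in siNC 2 against 1744 to 1822 CPM in the other libraries. Of all 15959 tested genes, siNC 2 was the highest library for 4601 and the lowest for 4402. Their log2 fold changes had a median of -0.01 with all libraries and 0.01 without siNC 2, with 0 calls by edgeR in either. Mrpl20 had the smallest p (-0.30 ± 0.12 on the log2 scale, unadjusted p = 0.0476, adjusted p = 0.978), and Mrpl16 (-0.22 ± 0.11) and Mrps30 (-0.24 ± 0.14) followed.

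Of 7 paralogs of cytosolic ribosomal proteins 5 were tested and edgeR called 0. The smallest p was that of Rps27l, at 48.6, 59.1 and 55.9 CPM in the siNC libraries against 48.6, 51.5 and 49.8 CPM in siPiezo1 (log2 fold change -0.13 ± 0.10), followed by Rpl39l (-0.22 ± 0.60) and Rpl7l1 (-0.03 ± 0.11). Among 5 genes of the p53 branch of nucleolar stress, Cdkn1a, an inhibitor of the cell cycle induced by p53, was at 217, 257 and 235 CPM in the siNC libraries against 179, 213 and 192 CPM in siPiezo1, without overlap. Its log2 fold change was -0.28 ± 0.10 (edgeR unadjusted p = 0.0296, adjusted p = 0.978), while Cdkn2a was at 0.20 ± 0.34 and Trp53 at 0.05 ± 0.09.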
